A study of Homo sapiens with 4 samples.

Results

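The genes of the TEAD transcription factors (TEAD1 to TEAD4), of the coactivators YAP1 and TAZ (the product of WWTR1) and of the vestigial-like cofactors (VGLL1 to VGLL4) were described in RNA-seq libraries of HGC-27, a human gastric cancer cell line. The members were taken by symbol, after the Ensembl identifiers of the table had been paired with gene names, and all 10 were found among the 62443 genes. GLUP is a synthetic disulfide-cyclized peptide that was designed to link TEAD4 molecules. The series holds 2 libraries of cells that received 10 μg/ml of GLUP and 2 control libraries. The treatment is given as 12 h in one place of the paper and as 48 h in another, and the controls are described as cells in the stocking buffer of the peptide or, in the sample labels, as cells with no treatment. The labels name no deletion or transgene in either group. The replicates are called biological, without a statement that they came from separate days, so each p-value below measures only the spread between these samples.

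TEAD proteins bind DNA through their TEA domain but hardly activate genes alone, and what they do depends on the cofactor that sits on their other domain. YAP and TAZ carry an activation domain and are held out of the nucleus when the Hippo kinases are active. VGLL proteins bind an overlapping face of TEAD through short Tondu motifs, and VGLL4, with a pair of them, competes with YAP and acts as a repressor. The balance between paralogs and between these cofactors in each library was therefore the comparison made here.

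Expression was measured as FPKM, the fragments of a gene scaled by its length and by the depth of the library, so that genes can be compared within a library. The FPKM values of a library summed to between 909735 and 949919. In genes with a single annotated transcript, the product of FPKM and length piled up at one value per library (2.11% to 3.3% of these genes lay within 1% of it). The value was sought between 0.04 and 0.1, and fewer genes piled up at other multiples of it. One of these multiples lay below the range searched and held 25 to 52 genes per library, against 68 to 107 at the chosen value. Were that lower value 1 fragment, the depth and the fragment numbers below would be higher. Read as 1 fragment, the chosen value corresponds to 12800000 to 15300000 fragments per library. This is an estimate only, since most low values were not whole multiples of the chosen value. Control replicate 2 stood apart, with a Pearson r to the other libraries of 0.873 to 0.933 over 7588 genes, whereas the GLUP libraries correlated at 0.986. Control replicate 1 was closer to the GLUP libraries (0.952 and 0.957) than to control replicate 2 (0.933). Markers of gastric mucosa were at or near 0 (4 of 6 were listed at 0 in every library, and the 6 summed to 0 to 0.0630 FPKM). The epithelial marker EPCAM was listed between 0 and 0.124 FPKM, while the mesenchymal marker VIM stood at 293 to 387 FPKM. LUM, a proteoglycan gene typical of fibroblasts, stood at 59.0 to 76.7 FPKM and the fibroblast marker DCN at 20.1 to 41.3 FPKM. Other markers of these lists were low, with mesenchymal CDH2 at 0.0508 FPKM or less and fibroblast COL1A2 at 0.246 to 0.443 FPKM. Fibroblast COL1A1 was at 2.97 and 3.64 FPKM without the peptide, compared with 6.90 and 4.42 FPKM after GLUP. The 5 epithelial markers summed to 2.97 and 3.70 FPKM without the peptide, compared with 5.87 and 5.18 FPKM after GLUP, and the 4 fibroblast markers to 105 and 104 FPKM against 97.5 and 104 FPKM. The higher epithelial sum came from KRT8, KRT18 and KRT19, whereas EPCAM and CDH1 were lower with GLUP and at 0.124 FPKM or less throughout. Of the mesenchymal markers, ZEB1 stood at 7.05 and 19.2 FPKM in control cells and at 2.88 and 2.92 FPKM with GLUP, and FN1 at 1.15 and 3.25 FPKM and at 0.655 and 0.671 FPKM. The part of these markers in the members' values was not tested. Blood and endothelial markers were at or near 0. In bulk RNA, fewer cells of a type and less RNA per cell cannot be told apart.

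Among the 10 members, 7 had a value above 0 and 3 (VGLL1, VGLL2 and VGLL3) were listed at 0 in all 4 libraries. The levels were low. TEAD4, WWTR1 and VGLL4 averaged 1 FPKM or more over the 4 libraries, the limit set for the main test. TEAD4 and VGLL4 reached it through the GLUP libraries, since their control means were 0.967 and 0.704 FPKM. The other 4 members above 0 were read from a second fit that held all 28873 genes with a value above 0 in any library. The groups did not overlap for 3 of the 7 members. VGLL4 was higher with GLUP, whereas YAP1 and TEAD1 were lower. In that fit, groups that did not overlap were seen for 39.7% of all genes, with 13.2% higher and 26.5% lower with GLUP.

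**Figure D1:**
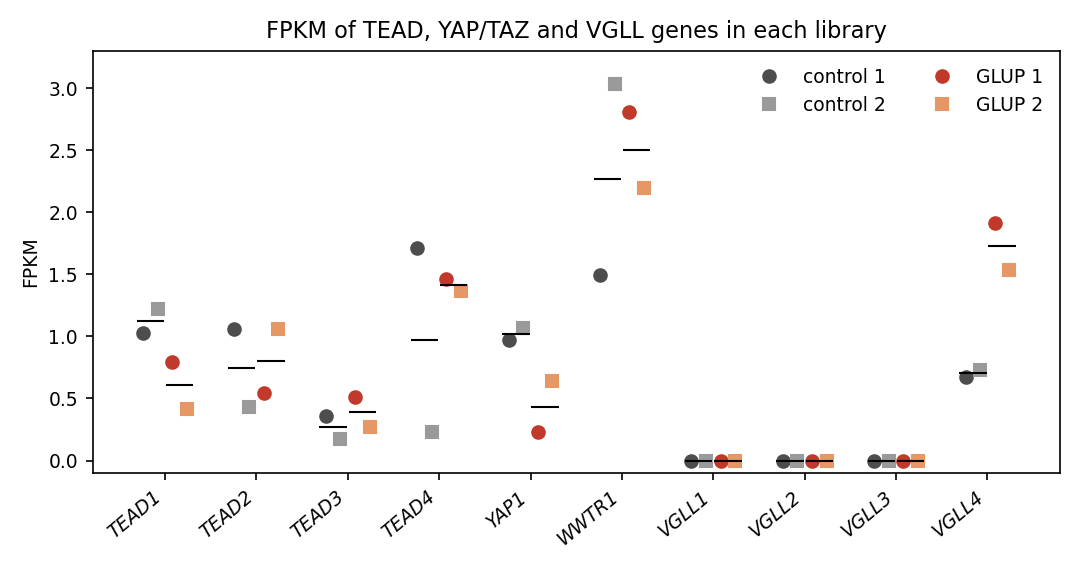
FPKM (vertical axis) of the 10 members in each of the 4 libraries, with points for libraries and short lines for group means. VGLL4 lies higher in both GLUP libraries, YAP1 and TEAD1 lie lower, and TEAD4 is low in control replicate 2 only.

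TEAD4 (ENSG00000197905), the factor that GLUP was built to bind, lies on chromosome 12 of GRCh37 from 3068496 to 3149842. It stood at 1.71 FPKM in control replicate 1, 0.226 FPKM in control replicate 2, 1.46 FPKM in GLUP replicate 1 and 1.36 FPKM in GLUP replicate 2. Control replicate 2 was the low library, and the GLUP values lay between those of the control libraries. On its 1710-base reference transcript, the value in control replicate 2 corresponded to about 4.95 fragments by the estimate above, against 35.7 to 44 in the other libraries, so its counting error there was large. The log2 fold change was 0.41 (SE 0.40, limma adjusted p = 0.490 by the Benjamini-Hochberg method). Its sign turned with the control library left out, to −0.17 when control replicate 2 was dropped. Dropping control replicate 1 instead gave 0.98, from a fit in which the low library was the only control.

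TEAD1 (ENSG00000187079), the paralog with the broadest tissue expression, lies on chromosome 11 from 12695968 to 12966284. It stood at 1.03 and 1.22 FPKM without the peptide, compared with 0.796 and 0.415 FPKM after GLUP. Both GLUP libraries were below both control libraries. Its log2 fold change of −0.41 (SE 0.21, limma adjusted p = 0.506) did not pass the test.

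TEAD2 (ENSG00000074219), on chromosome 19 from 49843852 to 49865714, is best known from early embryos. Its values were 1.06 and 0.431 FPKM without the peptide, compared with 0.544 and 1.06 FPKM after GLUP, so that each group held one high and one low library. TEAD3 (ENSG00000007866), on chromosome 6 from 35441374 to 35464856, a paralog first described in placenta, had the lowest FPKM of the TEAD genes in each of the 4 libraries. It stood at 0.362 and 0.171 FPKM without the peptide, compared with 0.515 and 0.270 FPKM after GLUP. The groups overlapped for both genes, with log2 fold changes of 0.055 (SE 0.28) for TEAD2 and 0.13 (SE 0.18) for TEAD3.

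Shares within a library do not depend on how libraries are scaled, and were used to compare the TEAD paralogs. TEAD4 made up 41.1% of the summed TEAD FPKM in control replicate 1, 11.1% in control replicate 2, 44.1% in GLUP replicate 1 and 43.9% in GLUP replicate 2. It was thus the leading paralog in 3 of the 4 libraries. TEAD1 made up 24.8% and 59.5% in the control libraries and 24.0% and 13.4% with GLUP, and led only in control replicate 2. The summed TEAD FPKM was 4.16 and 2.05 in the control libraries and 3.32 and 3.11 with GLUP, so the groups overlapped in the total.

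The share of TEAD4 was 26.1% ± 21.2 (SD, n = 2) in control cells and 44.02% ± 0.140 (SD, n = 2) with GLUP, a difference of 17.9 percentage points that was smaller than the spread of the control libraries. The two-sided exact permutation test over the 4 libraries gave p = 0.333, the smallest p that 2 libraries against 2 allow. The difference was 2.92 percentage points without control replicate 2 and 33.0 without control replicate 1. For TEAD1 the difference in share was −23.5 percentage points, and −6.10 without control replicate 2 (exact permutation p = 0.333). It was −40.8 without control replicate 1. With the trend along GC content removed from each library, the differences were 11.3 percentage points for TEAD4 and −8.65 for TEAD1. That trend was drawn on log2(FPKM + 1) but taken out of FPKM without a pseudocount, so for such low genes the correction is approximate. The share of TEAD2 was 25.4% and 21.1% against 16.4% and 34.0%, and that of TEAD3 was 8.71% and 8.37% against 15.5% and 8.69%.

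**Figure D2:**
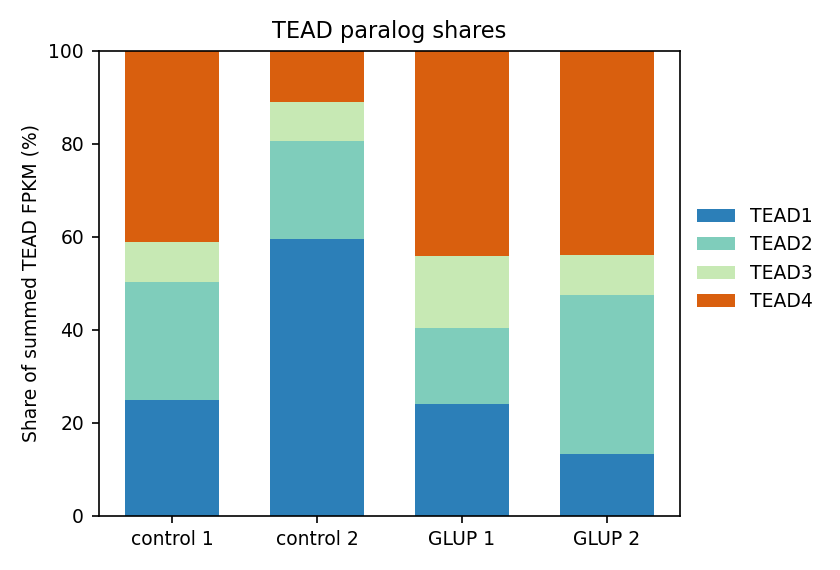
Share of each TEAD paralog in the summed TEAD FPKM (vertical axis, percent) in each library. TEAD4 holds 41.1% to 44.1% in 3 libraries and 11.1% in control replicate 2, where TEAD1 holds 59.5%.

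YAP1 (ENSG00000137693), which encodes the coactivator YAP, lies on chromosome 11 from 101981178 to 102104155. It stood at 0.971 and 1.07 FPKM without the peptide, compared with 0.228 and 0.638 FPKM after GLUP. Both GLUP libraries were below both control libraries, which lay close together. The means were 1.02 ± 0.0702 FPKM (SD, n = 2) and 0.433 ± 0.290 FPKM (SD, n = 2), a ratio of 0.425. By the estimate above, the 5401-base reference transcript had about 78.9 and 73.9 fragments in the control libraries. It had about 17.8 in GLUP replicate 1 and 52.7 in GLUP replicate 2, so ratios to YAP1 in GLUP replicate 1 rest on a low count. On the log2(FPKM + 1) scale, which understates changes of low genes, the log2 fold change was −0.51 (SE 0.22, limma adjusted p = 0.442), and it was −1.18 with a pseudocount of 0.1. A long non-coding RNA on the opposite strand, ENSG00000277459, overlaps the start of YAP1 and was listed at 0 and 0.256 FPKM without the peptide, compared with 0.216 and 0.490 FPKM after GLUP. The sources do not say whether strand was used in counting.

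WWTR1 (ENSG00000018408), which encodes TAZ, lies on chromosome 3 from 149235022 to 149454501 and was the member with the highest FPKM in every library except control replicate 1, where TEAD4 was higher. It stood at 1.498 and 3.03 FPKM without the peptide, compared with 2.80 and 2.20 FPKM after GLUP. Both GLUP values lay between the control values. The log2 fold change was 0.14 (SE 0.33, limma adjusted p = 0.789). The sum of YAP1 and WWTR1 was 2.47 and 4.10 FPKM without the peptide, compared with 3.03 and 2.84 FPKM after GLUP.

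The balance of the coactivators was then compared within each library. WWTR1 exceeded YAP1 in every library, by 1.54-fold and 2.84-fold in the control libraries and by 12.3-fold and 3.44-fold with GLUP. YAP1 made up 39.3% and 26.1% of the summed FPKM of the pair in control cells and 7.53% and 22.5% with GLUP. On the log2 scale, the ratio of YAP1 to WWTR1 was −1.06 ± 0.62 (SD, n = 2) in control cells and −2.70 ± 1.30 (SD, n = 2) with GLUP, a difference of −1.64 (exact permutation test, two-sided, p = 0.333). It was −0.72 without GLUP replicate 1 and −2.55 without GLUP replicate 2. The groups did not overlap, but the lowest control value and the highest GLUP value, −1.50 and −1.78, differed by less than the SD of either group.

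VGLL4 (ENSG00000144560), the repressive cofactor, lies on chromosome 3 from 11597543 to 11812824. It stood at 0.676 and 0.733 FPKM without the peptide, compared with 1.91 and 1.54 FPKM after GLUP. Both GLUP libraries were above both control libraries, and the distance between the groups was larger than the spread within either. The means were 0.704 ± 0.040 FPKM (SD, n = 2) and 1.73 ± 0.265 FPKM (SD, n = 2), a ratio of 2.45. By the estimate above these values corresponded to 35.4 to 38.4 fragments in the control libraries and 88.7 to 104 with GLUP on the 3775-base reference transcript. The log2 fold change of 0.67 (SE 0.23) had an unadjusted p of 0.0270 and an adjusted p of 0.125 from limma, so that VGLL4 did not pass the test. In the wider fit, which no limit on the mean shaped, the adjusted p from limma was 0.334. Over all alternatives it stayed between 0.57 and 1.18, with an adjusted p between 0.0528 and 0.620. The median of all 7588 genes was −0.36, and VGLL4 stood at 1.02 after the median of every library had been set equal. The 3′ end of VGLL4 overlaps ATG7, an autophagy gene on the opposite strand, which stood at 2.55 and 0.991 FPKM without the peptide, compared with 1.55 and 1.01 FPKM after GLUP. For ATG7 the GLUP values lay between the control values.

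VGLL1 (ENSG00000102243), on the X chromosome from 135614374 to 135638966, VGLL2 (ENSG00000170162), on chromosome 6 from 117586721 to 117594728, and VGLL3 (ENSG00000206538), on chromosome 3 from 86925538 to 87040299, encode cofactors with a single Tondu motif, of which VGLL2 is known from skeletal muscle. As all were listed at 0, VGLL4 made up 100% of the summed VGLL FPKM in every library, and no fold change is given for the other paralogs. A listed 0 can also be a value that the estimation did not return.

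The level of VGLL4 was then set against that of YAP1 and WWTR1, whose products bind the same factors. The ratio of VGLL4 to the sum of YAP1 and WWTR1 was 0.274 in control replicate 1, 0.178 in control replicate 2, 0.631 in GLUP replicate 1 and 0.542 in GLUP replicate 2. Both GLUP libraries were higher than both control libraries. On the log2 scale the difference was 1.40, with −2.18 ± 0.44 (SD, n = 2) in control cells and −0.77 ± 0.15 (SD, n = 2) with GLUP, and it was larger than the spread within either group (exact permutation test, two-sided, p = 0.333, the smallest possible). It ran from 1.09 to 1.71 with one library left out in turn. Against YAP1 alone, VGLL4 was at a ratio of 0.697 and 0.685 in the control libraries and of 8.38 and 2.41 with GLUP, so that VGLL4 was the lower of the pair in control cells and the higher with GLUP. Against WWTR1 alone the ratios were 0.451 and 0.241 in control cells and 0.682 and 0.700 with GLUP. These ratios share the VGLL4 values and are not independent of the result for that gene.

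**Figure D3:**
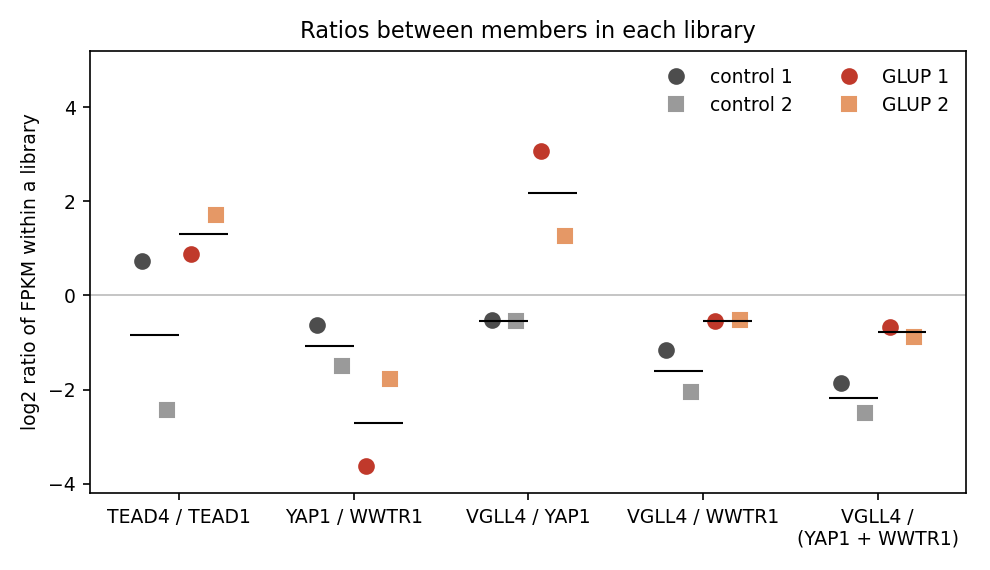
Log2 ratio of FPKM between members within a library (vertical axis), with points for the 4 libraries and short lines for group means. The ratio of VGLL4 to YAP1 plus WWTR1 lies between −2.49 and −1.87 in control cells and between −0.88 and −0.66 with GLUP, while TEAD4 over TEAD1 depends on control replicate 2.

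The promoters of the members were searched for the core of the M-CAT element that TEAD proteins bind, CATTCC or its reverse complement GGAATG. RefSeq windows of 250 bases before a transcription start (GRCh38) were at hand for 8 of the 10 members, all but TEAD1 and TEAD4. The core was present in 2 of the 14 windows of members, those of YAP1 and VGLL1, and in 11.9% of the 35116 windows of all genes. In the window of YAP1 (chr11:102110197-102110446, plus strand) its first base lay 162 bases before the start. None of the 5 windows of VGLL4 held it, including the window at the start of its reference transcript (chr3:11643916-11644165, minus strand). Both are printed 5′ to 3′ because YAP1 and VGLL4 were the cofactors whose groups did not overlap, with the core in capitals. A match is a description of the letters, not a bound site.
YAP1: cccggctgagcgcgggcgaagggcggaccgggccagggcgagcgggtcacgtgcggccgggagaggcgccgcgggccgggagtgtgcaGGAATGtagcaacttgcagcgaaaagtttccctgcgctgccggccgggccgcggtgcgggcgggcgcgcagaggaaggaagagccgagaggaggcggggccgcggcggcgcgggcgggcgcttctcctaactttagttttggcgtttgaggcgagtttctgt
VGLL4: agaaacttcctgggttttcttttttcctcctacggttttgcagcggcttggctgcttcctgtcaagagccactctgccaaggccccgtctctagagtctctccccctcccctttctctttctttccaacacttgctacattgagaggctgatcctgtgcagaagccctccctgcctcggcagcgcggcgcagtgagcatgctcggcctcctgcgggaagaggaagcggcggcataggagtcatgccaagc

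In the fits across all genes, no member was called (limma adjusted p below 0.05 with more than a 2-fold difference), neither among the 3 tested members nor among the 7 in the wider fit. The share of all genes called was 0.0264% of 7588 genes and 0% of 28873 genes. With limma, 1 member (VGLL4) had an unadjusted p under 0.05 in either fit. An unadjusted p under 0.05 with a higher value was found for 6.37% of the 7588 genes, and with a lower value for 25.4%. In the wider fit these shares were 3.4% and 9.56%. Both GLUP libraries lay above both control libraries for 17.5% of the 7588 genes, as for VGLL4, and below them for 49.7%, so that the groups did not overlap for 67.2%.

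**Figure D4:**
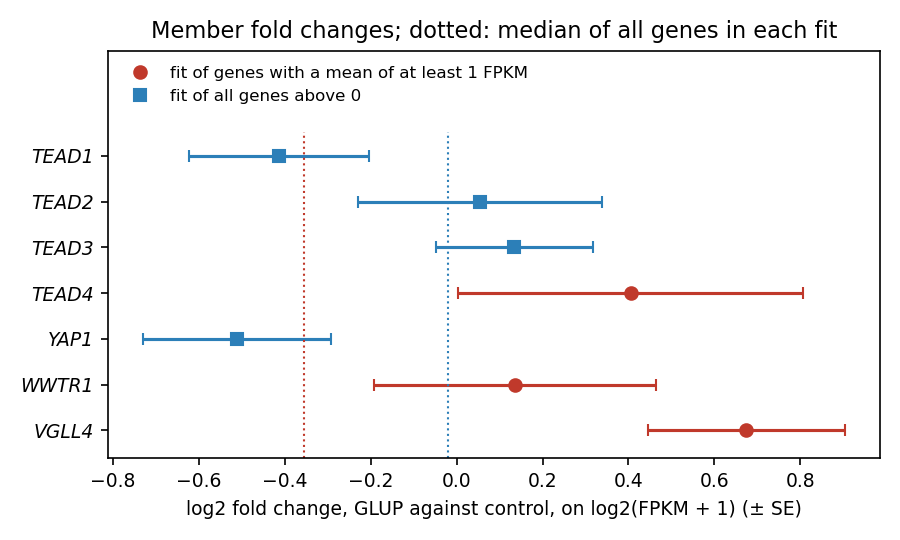
Log2 fold change of each member above 0 (horizontal axis, on the log2(FPKM + 1) scale, bars ± SE from limma), with dotted lines at the median of all genes in each fit. VGLL4 at 0.67 is the highest and YAP1 at −0.51 the lowest, and no member passed the adjusted threshold.

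The members also differed in base composition. The longest transcripts of TEAD2, TEAD3 and TEAD4 have a GC content of 58.4%, 59.8% and 60.4%, and all 3 genes were lower in control replicate 2 than in control replicate 1, by log2 ratios of −1.29, −1.08 and −2.92. WWTR1, TEAD1 and YAP1, with 42.2%, 43.0% and 43.5%, were all higher in control replicate 2, by 1.02, 0.24 and 0.14. VGLL4, at 50.0%, differed by 0.12 between the control libraries. Across the 7570 tested genes with a known GC content, which are not independent replicates, the difference between the control libraries followed GC content with a Spearman rho of −0.42, and the fold change of GLUP against control with a rho of 0.58. Control replicate 2 enters both differences, so the rho values are not independent of each other. With the trend along GC content removed from each library, the log2 fold change in the main fit was −0.087 for TEAD4, 0.77 for WWTR1 and 0.83 for VGLL4. For YAP1 it was −0.43 in the wider fit. The trend removed there was drawn over all genes above 0, so this value cannot be set beside the others. The part of GC content in the values of single members was not tested beyond this.

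The genes around the members were taken from fixed lists. Of 22 Hippo kinases, adaptors and inhibitors, 9 were tested and none was called. At an unadjusted p under 0.05 from limma, 1 was higher and 3 were lower, beside 6.37% and 25.4% of all genes tested. In 6 of the 9 both GLUP libraries were below both control libraries, and in 1 they were above, beside 49.7% and 17.5% of all genes tested. STK3, which encodes the kinase MST2 at the head of the cascade, stood at 4.01 and 2.10 FPKM without the peptide, compared with 0.949 and 0.778 FPKM after GLUP. It reached the limit of 1 FPKM through the control libraries, as did other genes of the list. MOB1A, the coactivator of the LATS kinases, was at 21.2 and 24.7 FPKM against 11.9 and 11.3 FPKM. MAP4K4, a kinase that acts in parallel to MST2, was at 2.95 and 3.05 FPKM against 1.61 and 1.47 FPKM. NF2, the membrane scaffold merlin, was the gene that lay higher, with 1.06 and 1.12 FPKM without the peptide, compared with 2.99 and 2.01 FPKM after GLUP. Their log2 fold changes were −1.08, −0.92, −0.65 and 0.73, with an adjusted p between 0.107 and 0.141 from limma. The median of the 9 genes was −0.57, beside −0.36 for all genes tested.

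Of 13 genes for the retention and turnover of YAP and TAZ, 10 were tested and none was called, with 4 lower at an unadjusted p under 0.05 from limma and 5 lower without overlap, beside 25.4% and 49.7% of all genes tested. Among the 14-3-3 proteins, which hold phosphorylated YAP in the cytoplasm, YWHAH stood at 16.8 and 21.7 FPKM in control cells and at 7.94 and 8.95 FPKM with GLUP (log2 fold change −1.09, adjusted p = 0.108 from limma). YWHAB was at 90.2 and 108 FPKM against 50.9 and 49.6 FPKM, and YWHAZ at 26.5 and 33.9 FPKM against 16.5 and 15 FPKM. CUL1, the scaffold of the ligase that degrades YAP and TAZ, was at 6.53 and 4.74 FPKM against 2.77 and 3.10 FPKM. The median of the 10 genes was −0.65, beside −0.36 for all genes tested.

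Of 15 other nuclear partners of TEAD, YAP or TAZ, 5 were tested and none was called, with 0 at an unadjusted p under 0.05 from limma. RFXANK, a subunit of the RFX complex that activates MHC class II genes and a cofactor of TEAD4 that the study examined, stood at 289 and 44.9 FPKM without the peptide, compared with 289 and 283 FPKM after GLUP. Control replicate 2 was the low library, as for TEAD4. SMARCA4, the ATPase of a chromatin remodeller, was at 29.1 and 34.9 FPKM against 26.7 and 25.6 FPKM. The median of the 5 genes was 0.34, beside −0.36 for all genes tested. Without overlap, 1 of the 5 was higher with GLUP and 1 was lower, beside 17.5% and 49.7% of all genes tested.

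Of 22 target genes of YAP/TAZ and TEAD, 11 were tested and none was called, with 6 lower at an unadjusted p under 0.05 from limma. All 11 had a log2 fold change below 0, with a median of −0.84 beside −0.36 for all genes tested, and 8 were lower without overlap. Of all 7588 genes tested, 66.7% had a log2 fold change below 0, 49.7% were lower without overlap, and 25.4% were lower at an unadjusted p under 0.05. ANKRD1 (−2.14), AXL (−1.61), F3 (−1.53) and CRIM1 (−1.43) had the lowest log2 fold changes, with a limma adjusted p of 0.242 for ANKRD1 and of 0.10 for each of the others. ANKRD1 was at 16.1 FPKM in control replicate 1 and at 0.191 FPKM or less in the other libraries. With GLUP, F3 was at 0.431 and 0.472 FPKM and CRIM1 at 0.315 and 0.299 FPKM. ANKRD1, F3, CRIM1 and other genes of the 11 thus reached the limit of 1 FPKM through the control libraries. Such a limit favours genes that are lower with GLUP, so these counts and the median lean that way. The lists were drawn up with results of these data known, and the counts are a description.

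**Figure D5:**
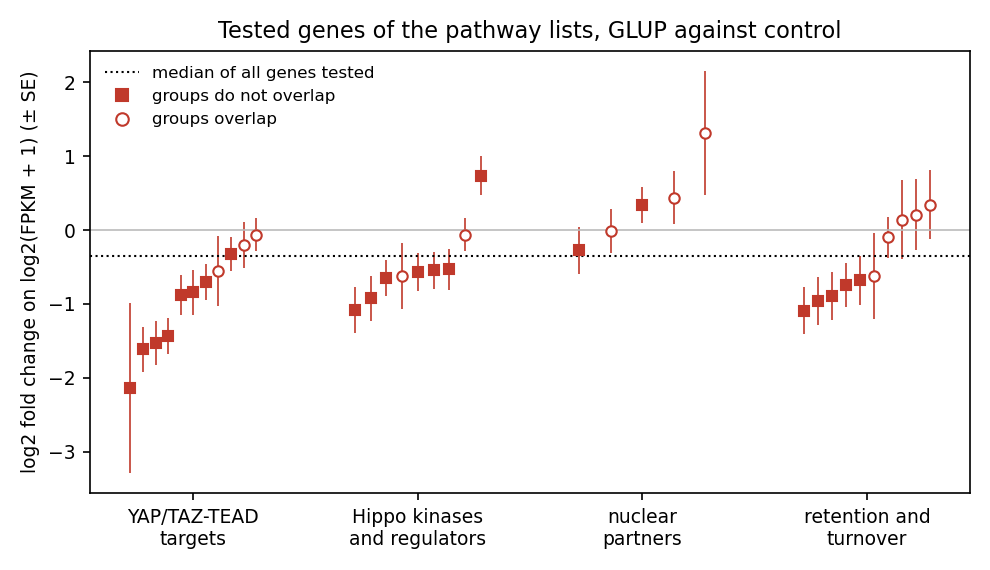
Log2 fold change of each tested gene of the 4 lists (vertical axis, on the log2(FPKM + 1) scale, bars ± SE from limma), with filled squares where the groups did not overlap and a dotted line at the median of all genes tested, −0.36. NF2 is the one Hippo gene that lies higher without overlap, and RFXANK has a wide error.

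The tested genes with values most like those of TEAD4, YAP1 and VGLL4 were found by the Euclidean distance between mean-centred log2(FPKM + 1) values over the 4 libraries. For TEAD4 these were DCPS, PREB and TAPBPL (distances of 0.031, 0.051 and 0.054), for YAP1 HOMER2, TYW1 and MAPRE2 (0.060, 0.060 and 0.064) and for VGLL4 ZNF358, DBP and HNRNPA2B1 (0.057, 0.093 and 0.117). With 4 libraries such likeness is common: of 7585 genes, 85 lay within 0.2 of TEAD4, 101 of YAP1 and 34 of VGLL4.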

How the data were processed

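RNA-seq libraries of HGC-27 cells (2 control, 2 GLUP) were grouped by their titles. The authors deposited FPKM values in one table of 62492 rows, made on the Majorbio platform. The submitters' processing notes name HISAT2, Cufflinks and RSEM and the build GRCh38.p10, without roles, whereas the row identifiers have the form of GENCODE annotation lifted to GRCh37, so positions, lengths and GC content were taken from that annotation. Rows that shared a gene ID were added up, leaving 62443 genes, and 99.5% were paired with a symbol. Differences in log2(FPKM + 1) were fitted by limma 3.58.1 under R 4.3.3 (mean-variance trend, Benjamini-Hochberg adjustment over all genes of the fit, two-sided), for genes that averaged 1 FPKM or more and, for members under this limit, for all genes above 0. The fit was tested on simulated data. Shares and ratios used FPKM with no pseudocount and an exact permutation test. Named list genes were the up to 4 tested genes per list with the largest absolute log2 fold change among those without overlap, and RFXANK, and 1 gene named by this rule is not reported here. The alternatives were another pseudocount, limit, scaling or trend, the replicate number as a block, a GC correction (lowess, span 0.3) and leaving out each library. The members and lists were chosen with earlier results of these data known.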

Additional observations from a re-analysis of the deposited data

How the results depend on the processing

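The number of all genes called, 2 with limma, became 1 when the pseudocount was 0.1, when libraries were centred on their medians or after quantile normalization. It became 0 if every gene above 0 was tested, if the limit was 0.5 FPKM, if the mean-variance trend was dropped or after the GC correction, with 1293, 1497, 1461 and 702 genes then differing over 2-fold at an unadjusted p below 0.05. It was 16 with the GC correction and the replicate block together, and ran from 4 to 2710 with one library left out, the highest without control replicate 1 and 1020 without control replicate 2. Under each of these, 0 members were called. The members without overlap, 3 of 7, numbered from 4 to 7 with one library left out, since a lone library overlaps less often. The replicate numbers are not tied to a shared day, and the deviations of equal numbers correlated at r = 0.13. With the replicate block alone, 2 genes were called and VGLL4 had an adjusted p of 0.126 from limma. In this balanced design the block cannot change a log2 fold change, and that of VGLL4 stayed at 0.67.

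Directions turned for TEAD4 (−0.087 with the GC correction, alone or with the block, and −0.17 to 0.98 with one library left out, the lowest without control replicate 2), for TEAD2 (−0.0016 with the GC correction, alone or with the block, and −0.21 to 0.32 with one library left out, with −0.15 without GLUP replicate 2) and for WWTR1 (−0.21 without control replicate 1, the lowest of −0.21 to 0.48 with one library left out). Of 86 alternatives for member fold changes, 77 kept the direction and the side of the adjusted p threshold, 8 turned the direction, and 1, TEAD4 without control replicate 1, passed the threshold (adjusted p = 0.0117 from limma). The differences in the TEAD4 and TEAD1 shares kept their sign under the alternatives tried. So did those in the log2 ratios of TEAD4 to TEAD1, YAP1 to WWTR1 and VGLL4 to YAP1 plus WWTR1. The groups did not overlap for any of these, so leaving out a library could not turn the sign. The replicate block leaves such a difference unchanged, so only the pseudocount and the GC correction could have turned it. With 2 libraries against 2 no test of them could pass. With the GC correction, which is approximate for shares and ratios, the log2 ratio of TEAD4 to TEAD1 differed by 1.05 in place of 2.15. The VGLL4 share of the VGLL genes, with a difference of 0, differed by 12.96 percentage points with a pseudocount of 0.1, which gives the genes listed at 0 a value. The other shares and ratios were not recomputed.

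List medians are given minus that of all genes tested. For the targets, −0.49, it was −0.78 with a pseudocount of 0.1, −0.26 with all genes above 0, −0.42 with a limit of 0.5 FPKM, −0.39 with the GC correction with or without the block, and −0.52 to −0.37 with one library left out. For the Hippo genes, −0.21, the same settings gave −0.36, −0.27, −0.28 and −0.039, quantile normalization −0.26, and leaving out one library −0.38 to −0.072. For the nuclear partners, 0.70, they were −0.088 with all genes above 0, 0.14 with a limit of 0.5 FPKM, −0.024 with the GC correction with or without the block, and 0.33 to 0.77 with one library left out. For retention and turnover, −0.30, it was −0.45 with all genes above 0, −0.070 with the GC correction with or without the block, and −0.40 to −0.10 with one library left out. The causes were not tested. The estimated depth leaves a few fragments for TEAD3 and for TEAD4 in control replicate 2.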
